A study of Xenopus laevis with 18 samples.

Results

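Solute carriers are membrane proteins that move ions, nutrients, metabolites and metals across the plasma membrane or across the membranes of organelles, and their genes carry the symbol slc with a family number. Messenger RNAs of solute carriers were followed through 3 cell fractions of Xenopus laevis oocytes and eggs. The transcripts were chosen by name and level: every one whose Xenopus name begins with slc and a digit was taken if its mean over the 18 libraries was at least 1 TPM, a length-corrected level scaled to the same total in each library. This gave 282 transcripts of 450 with such a name, out of 51026 named transcripts in all. They belong to 200 gene names in 47 families. The slc25 family of mitochondrial carriers has 52 of the transcripts and the other families have 230. This split is by family number and not by the known place of each protein in the cell. Xenopus laevis is an allotetraploid frog whose genes often have a long-chromosome (.L) and a short-chromosome (.S) copy, called homeologs. Of the 282 transcripts, 171 are .L, 108 are .S and 3 carry no such ending, and 74 genes are present with both copies. Transcript models that share a name are told apart here by the gene number of the deposited tables. The 282 were selected on the mean TPM, which is given below as a description only. Just inside that limit was an slc18a2.L model (gene45565) at 1.03 TPM, and just outside it was slc38a5.L at 0.990 TPM.

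The study split oocytes and eggs into cytosol, endoplasmic reticulum (ER) and pellet fractions and sequenced the RNA of each. The egg groups are egg ER, egg pellet and egg cytosol, from cells labelled mature egg at germinal vesicle breakdown, the dissolution of the oocyte nucleus. They were obtained from defolliculated stage VI oocytes by culture with 2 µM progesterone, the hormone that triggers meiotic maturation. The oocyte groups are oocyte ER, oocyte pellet and oocyte cytosol, from defolliculated stage VI oocytes, the fully grown stage, in the same medium without the hormone. All cells were kept at 18 °C. Each group has 3 libraries, each made from 4 cells. The submitters call the libraries biological replicates, but the frogs or cultures behind them are not given, so p-values measure only the spread between these samples.

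As background, an mRNA that encodes a membrane protein of the secretory pathway is usually translated on ribosomes docked at the ER, where the signal recognition particle delivers it. Most carriers of the slc25 family are instead made in the cytosol and imported into the inner mitochondrial membrane after or during translation. A grown frog oocyte is transcriptionally quiet and stores maternal mRNA, and progesterone changes which of the stored messages are translated.

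Total counts were 23095791 to 37834029 per library. Of 14 oocyte marker genes 13 were matched, and all 13 were at or above 1 TPM in every group. Blood markers summed to 1.29 to 3.01 TPM. Follicle cell and theca markers, 20 of 20 matched, were present in part although the cells had been defolliculated. Of the 20, 4 were at or above 1 TPM in egg ER, 9 in egg pellet and 6 in egg cytosol. In oocytes 5 were at or above 1 TPM in ER, 11 in pellet and 5 in cytosol. The markers of this list summed to 61.9 to 83.8 TPM in egg ER, 165 to 185 TPM in egg pellet and 27.9 to 30.7 TPM in egg cytosol. In oocytes they summed to 49.3 to 54.8 TPM in ER, 137 to 165 TPM in pellet and 56.3 to 59.6 TPM in cytosol, with the steroid enzyme gene cyp17a1 highest in every group. Whether these transcripts, cyp17a1 among them, came from follicle cells or from the oocytes themselves was not tested, so the sums do not measure follicle cells. One transcript, ccdc50.L (gene47265), took 21.9 to 29.6% of all TPM in egg ER, 0.254 to 0.730% in egg cytosol, 16.9 to 17.8% in oocyte ER and 0.267 to 0.743% in oocyte cytosol, so fractions were compared after TMM scaling and not by TPM. Differences between fractions or stages are therefore relative to the typical transcript of the same comparison. Under scaling by the 5 spike-in RNAs the median log2 difference of all transcripts was instead -1.80 for egg ER against egg cytosol, -1.94 for egg pellet against egg cytosol, -0.81 for oocyte ER and -1.68 for oocyte pellet against oocyte cytosol. Between egg and oocyte it was 0.24 in cytosol, -0.71 in ER and 0.04 in pellet.

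The authors' deposited shares state, for each transcript, which percent of its copies lay in cytosol, ER and pellet of one stage and one replicate number, on their spike-in based attomolar scale. The 2 pellet libraries of replicate number 1 stood apart on this scale. The median pellet share of the 282 carriers was 22.7% in egg replicate 1, against 9.95% and 9.74% in the other two egg replicates. It was 18.3% in oocyte replicate 1, against 8.78% and 11.2% in the other two oocyte replicates. Counts of shares are therefore also given without replicate 1. Values of 3 libraries are listed in the order of replicates 1, 2 and 3 throughout, and every adjusted p is from edgeR's quasi-likelihood test over 25938 transcripts with Benjamini-Hochberg adjustment. A transcript was called at an adjusted p under 0.05, and an error after ± in a log2 fold change is its standard error (SE).

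The carriers had mean levels between 1.03 and 380 TPM, with a median of 15.8 TPM. The slc25 mitochondrial carriers had a median of 22.5 TPM, the other families 13.5 TPM, and the 20849 named transcripts at or above 1 TPM had 21.2 TPM. The highest was slc25a5.L at 380 TPM, one copy of the ADP/ATP carrier that exchanges ADP and ATP across the inner mitochondrial membrane, and its copy slc25a5.S had 192 TPM. Next to it was slc16a3.L, a lactate transporter of the monocarboxylate family, at 373 TPM. slc9a3r1.L and slc9a3r1.S had 212 and 205 TPM, but they encode a scaffold protein of sodium-proton exchangers and not a transporter. The other members of the top 10 were slc25a44 with 178 TPM, a mitochondrial carrier of branched-chain amino acids, slc25a3.L with 168 TPM, the mitochondrial phosphate carrier, slc6a14.2.L with 140 TPM, an amino acid transporter, slc16a1.L with 128 TPM, another lactate carrier, and slc20a1.S with 122 TPM, a sodium-phosphate cotransporter. The slc25a44 model in the top 10 (gene48994) is short, at 678 nt, and has no .L or .S ending. The 282 carriers together took 0.599 to 0.938% of the TPM of a library. All 282 passed the filter on low counts, and 258 had a group mean of at least 1 TPM in each of the 6 groups. Without the group in which they were highest, 9 fell under the limit of 1 TPM. The slc25 transcripts had a median length of 3571 nt, those of the other families 5103.5 nt, and all transcripts at or above 1 TPM had 3855 nt.

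By median share, carriers lay more in the cytosol in eggs than in oocytes. The medians weigh each transcript alike, so they do not give the part of all carrier mRNA that lay in the cytosol. The median cytosol share was 66.9% for slc25 carriers, 64.8% for the other families and 68.1% for all transcripts at or above 1 TPM in eggs. In oocytes it was 49.5% for slc25 carriers, 52.6% for the other families and 52.4% for all. The median ER share in eggs was 18.3% for slc25 carriers, 20.4% for the other families and 18.7% for all, against 34.6%, 33.1% and 33.3% in oocytes. The mean ER share was lower in eggs than in oocytes for 270 of the 282 carriers, and for 264 without replicate 1. That is 95.7% of the carriers, beside 97.8% of all transcripts at or above 1 TPM, and 93.6% beside 96.8% without replicate 1. A share of a fraction rises when that of another falls, and these counts of shares carry no test.

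A small set of carriers lay mainly on the ER. The mean ER share was over 50% for 3 carriers in eggs (5 without replicate 1), against 15 in oocytes (15 without replicate 1). The 15 are 5.32% of the carriers, and 4.12% of all transcripts at or above 1 TPM passed the same limit in oocytes. Transcripts that passed 1 TPM only through their highest group were also left out, an alternative added after the data were seen. Then 2 of 273 carriers (0.733%) were over 50% in eggs, against 0.172% of all, and 14 (5.13%) in oocytes, against 4.10%. Without replicate 1 as well, these were 4 (1.47%) in eggs, against 0.368% of all, and 14 (5.13%) in oocytes, against 5.27%. Among the carriers of at least 2 TPM the highest was slc18a2.L (gene27348), the vesicular monoamine transporter that loads monoamines into secretory vesicles. Its ER share was 46.6%, 59.9% and 63.2% in eggs and 66.2%, 76.1% and 76.8% in oocytes, so the 2 stages did not overlap. In CPM, counts scaled to library size, it had 95.4, 97.1 and 101 in egg ER and 8.11, 7.74 and 8.24 in egg cytosol. It had 98.4, 90.1 and 92.2 CPM in oocyte ER and 6.64, 4.07 and 6.38 CPM in oocyte cytosol. Every ER library was above every cytosol library of its stage. Relative to the typical transcript slc18a2.L was higher in ER in eggs (log2 fold change 3.60 ± 0.12, adjusted p = 7.52e-16) and in oocytes (log2 fold change 4.04 ± 0.12, adjusted p = 1.41e-16). The change of that difference between the stages was not called (log2 fold change -0.43 ± 0.17, adjusted p = 0.0653). It was called lower in eggs by DESeq2 (adjusted p = 0.038), with no filter on low counts (adjusted p = 0.0068), and without replicate 1 (adjusted p = 0.027) or replicate 3 (adjusted p = 0.0475) of oocyte cytosol. All of these settings are relative to the typical transcript, whose own change was -0.97 under spike-in scaling. The second model of slc18a2.L, gene45565 at 1.03 TPM, which passed the limit of 1 TPM only through oocyte ER and is in both counts over 50%, had ER shares of 59.9%, 63.2% and 68.9% in eggs and 76.3%, 85.7% and 78.4% in oocytes.

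**Figure D1:**
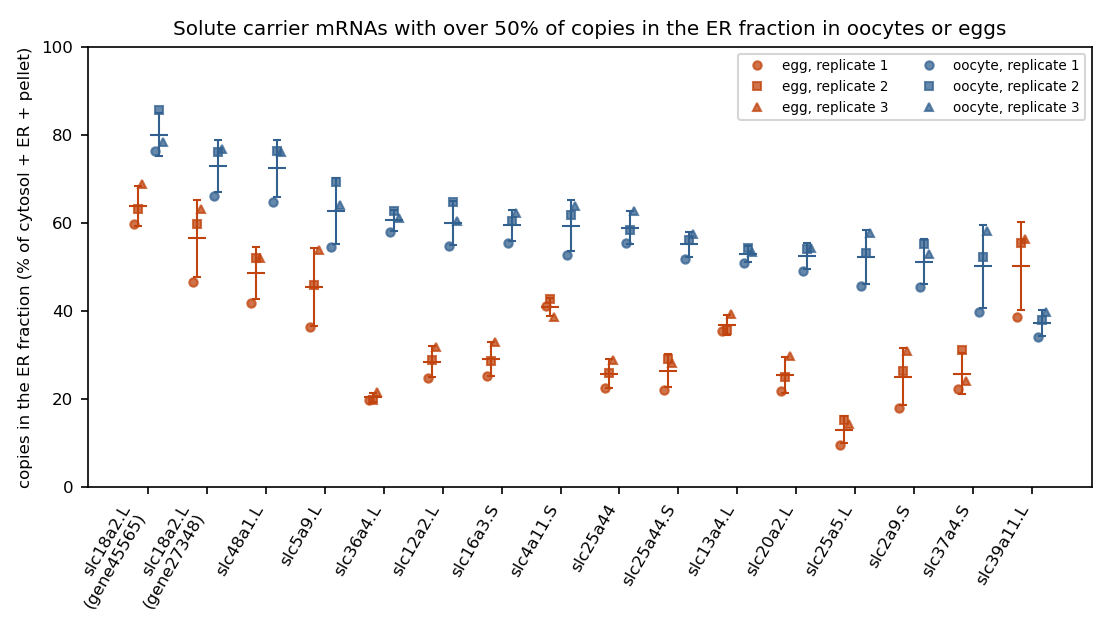
Percent of a transcript's copies in the ER fraction (authors' deposited shares, axis from 0 to 100%) for the 16 solute carrier mRNAs whose mean passed 50% in eggs or oocytes, eggs left of oocytes. Circles, squares and triangles are replicates 1, 2 and 3, and horizontal marks with bars are means ± SD; 15 of the 16 lie lower in eggs, and slc39a11.L lies higher in eggs.

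The other carriers of this set fall into several roles. slc48a1.L, a haem transporter of endosomes and lysosomes, had an ER share of 41.9%, 52.0% and 52.0% in eggs and 64.9%, 76.3% and 76.1% in oocytes. Its ER excess over cytosol was called in eggs (log2 fold change 2.42 ± 0.080, adjusted p = 8.61e-16) and in oocytes (log2 fold change 3.34 ± 0.086, adjusted p = 2.5e-17), and was smaller in eggs by a called amount (log2 fold change -0.92 ± 0.12, adjusted p = 2.53e-06). slc5a9.L, a sodium-coupled sugar carrier, had 36.5%, 46.1% and 54.0% in eggs and 54.5%, 69.4% and 64.2% in oocytes, and its ER excess was called at both stages. The lactate carrier slc16a3.S had 25.3%, 28.8% and 33.0% in eggs and 55.6%, 60.6% and 62.3% in oocytes, with no overlap of the stages. Likewise slc12a2.L, the sodium-potassium-chloride cotransporter that loads cells with chloride, had 24.8%, 28.8% and 31.8% in eggs and 54.9%, 64.7% and 60.6% in oocytes. For slc36a4.L, an amino acid carrier, the share was 19.8%, 19.8% and 21.6% in eggs and 58.0%, 62.7% and 61.2% in oocytes, among the widest gaps of the set. The remaining members with an oocyte mean over 50% were slc2a9.S, a urate and glucose carrier, slc20a2.L, a sodium-phosphate cotransporter, slc4a11.S, slc13a4.L, a sodium-sulfate cotransporter, slc37a4.S, the ER glucose-6-phosphate transporter, and the mitochondrial carriers slc25a5.L, slc25a44 and slc25a44.S. slc4a11.S had ER shares of 41.2%, 42.7% and 38.8% in eggs and 52.8%, 61.8% and 63.8% in oocytes, and slc13a4.L had 35.4%, 35.7% and 39.4% in eggs and 51.1%, 54.4% and 53.5% in oocytes.

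Relative to the typical transcript, solute carriers were called in both directions on the oocyte ER. Of the 282, 86 were higher and 71 were lower in oocyte ER than in oocyte cytosol, beside 24.3% and 24.8% of all transcripts tested. Among slc25 carriers 20 of 52 were higher and 11 lower, with a median log2 difference of 0.11, and among the other families 66 of 230 were higher and 60 lower, with a median of 0.02. The difference between these sets was not tested. Among the exchangers of bicarbonate, protons, calcium and other anions 2 of 21 were higher and 13 lower in ER, with a median of -0.35. The 21 include slc4a1ap.L, by its name an adaptor of slc4a1 and not an exchanger, which was called lower in ER and in pellet than in cytosol at both stages and in no other comparison. The families grouped here as sugar carriers had 8 of 19 higher and 1 lower in ER. This group was set by family number and holds models of the urate carrier slc2a9 (gene10206, gene41172 and gene1920), so its counts are not those of sugar transport alone. The carriers of zinc, iron, copper and magnesium had 11 of 40 higher and 14 lower, and the amino acid carriers 12 of 42 higher and 11 lower. The members with the largest called deficit on the oocyte ER were slc47a2.S, a drug and toxin exporter, slc4a1.L, the band 3 chloride-bicarbonate exchanger, slc26a6.L, an anion exchanger, slc25a16.S and slc25a24.L, an ATP-Mg/phosphate carrier. slc4a1.L had 31.8, 26.3 and 29.2 CPM in oocyte ER and 60.9, 53.6 and 61.0 CPM in oocyte cytosol (log2 fold change -1.01 ± 0.076, adjusted p = 3.4e-10). slc26a6.L had 9.17, 6.74 and 9.06 CPM in oocyte ER and 17.9, 13.2 and 18.5 CPM in oocyte cytosol (log2 fold change -0.99 ± 0.14, adjusted p = 6.11e-06). In neither did an ER library reach a cytosol library.

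In eggs more carriers were called on the ER side than on the cytosol side. Of all 282, 108 were higher and 43 were lower in egg ER than in egg cytosol, beside 18.4% and 21.7% of all transcripts. Among slc25 carriers 10 of 52 were higher and 15 lower, with a median of -0.01. The other families are set beside them without a test of the difference. In the other families 98 of 230 were higher and 28 lower, with a median of 0.19. Peptide and monocarboxylate carriers had 8 of 12 higher and 1 lower (median 0.59), amino acid and heavy-chain carriers 21 of 42 higher and 2 lower (median 0.34), nucleotide sugar and related Golgi carriers 13 of 24 higher and 1 lower (median 0.20), and metal carriers 19 of 40 higher and 5 lower (median 0.19). Exchangers had 6 of 21 higher and 7 lower. Within the metal carriers, the zinc importer family slc39 had 9 of 17 higher and 1 lower. In the monocarboxylate family slc16, 6 of 9 were higher and none was lower. These values are relative to the typical transcript, and under spike-in scaling every one of these sets had a median below 0 in ER against cytosol at either stage, as did all transcripts.

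The change of the ER to cytosol difference between egg and oocyte was tested directly, as an interaction. It was called higher in eggs for 79 carriers and lower in eggs for 40, beside 12.4% and 14.7% of all transcripts. For slc25 carriers 5 of 52 were higher and 15 lower, with a median of -0.02, and for the other families 74 of 230 were higher and 25 lower, with a median of 0.15. Metal carriers had 18 of 40 higher and 3 lower, amino acid carriers 13 of 42 higher and 4 lower, exchangers 9 of 21 higher and 1 lower, nucleotide sugar carriers 7 of 24 higher and 1 lower, and fatty acid, acetyl-CoA and choline carriers 6 of 11 higher and none lower. The group of sugar carriers went the other way in its counts, with 3 of 19 higher and 5 lower, a model of the urate carrier slc2a9.L (gene41172) among the lower. Under spike-in scaling, where the median of all transcripts was -0.97, the medians of slc25 carriers (-0.99) and of the other families (-0.83) were both below 0, so the positive median of the other families holds relative to the typical transcript only.

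**Figure D2:**
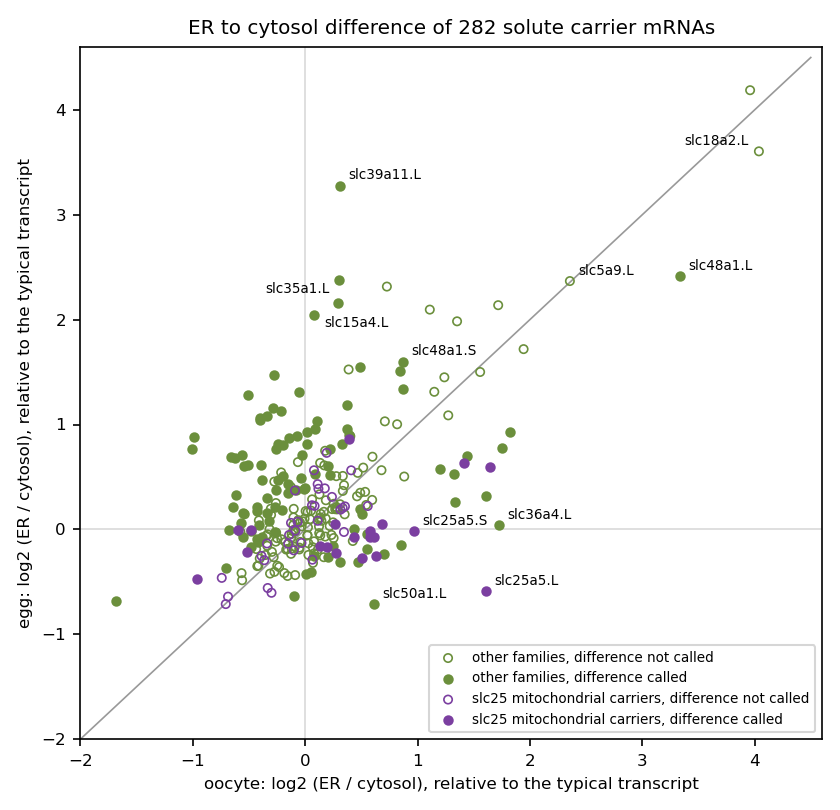
The log2 difference between ER and cytosol in eggs (vertical axis) against that in oocytes (horizontal axis) for the 282 carriers, each relative to the typical transcript. Filled points had a called change between the stages and open points did not; the grey diagonal marks an equal difference. The 2 axes share no library, and labelled points above the diagonal include slc39a11.L and slc15a4.L and below it slc25a5.L and slc36a4.L.

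Among the carriers with an slc25 symbol, the 15 that were lower in this change included the 4 with the highest mean TPM. The mitochondrial carriers ucp2.L and ucp2.S, under another name and so outside this set, had 354 and 239 TPM. Their change was not called, for ucp2.L (log2 fold change -0.010 ± 0.11, adjusted p = 0.962) or for ucp2.S (log2 fold change 0.13 ± 0.10, adjusted p = 0.427). slc25a5.L had 147, 182 and 179 CPM in egg ER and 253, 246 and 265 CPM in egg cytosol, with each ER library below each cytosol library. In oocytes the order was the opposite, with 330.0, 324 and 299 CPM in oocyte ER and 108, 107 and 96.4 CPM in oocyte cytosol. slc25a5.L was thus lower in ER in eggs (log2 fold change -0.59 ± 0.074, adjusted p = 1.2e-06), higher in ER in oocytes (log2 fold change 1.61 ± 0.075, adjusted p = 1.43e-13), and the change had the largest size of the 40 lower ones (log2 fold change -2.20 ± 0.10, adjusted p = 1.11e-12). Its ER share was 9.61%, 15.3% and 14.3% in eggs and 45.7%, 53.3% and 57.8% in oocytes. The copy slc25a5.S had ER shares of 13.9%, 20.2% and 19.8% in eggs and 43.2%, 46.3% and 52.6% in oocytes, and its change was also called (log2 fold change -0.98 ± 0.092, adjusted p = 3.54e-08). For slc25a44 the ER shares were 22.6%, 26.0% and 29.0% in eggs and 55.5%, 58.5% and 62.9% in oocytes (log2 fold change -1.05 ± 0.12, adjusted p = 9.26e-07). That slc25a44 is the short model of 678 nt without an .L or .S ending. Of the models with an ending, slc25a44.S was called lower (log2 fold change -0.77 ± 0.091, adjusted p = 9.57e-07), and slc25a44.L was not called. Both copies of the phosphate carrier slc25a3 were called lower, slc25a3.L (log2 fold change -0.50 ± 0.069, adjusted p = 7.3e-06) and slc25a3.S (log2 fold change -0.50 ± 0.095, adjusted p = 0.000301). Further called members on this side were both copies of slc25a11, the 2-oxoglutarate carrier, slc25a20.L and slc25a20.2.S, carnitine-acylcarnitine carriers, slc25a24.S, slc25a26.L, slc25a37.L, slc25a40.L and slc25a51.S.

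Among the slc25 carriers called on the other side were slc25a1.L, the citrate carrier, slc25a16.L, slc25a16.S and slc25a30.S. slc25a1.L had ER shares of 25.3%, 31.3% and 31.8% in eggs and 40.8%, 42.2% and 42.8% in oocytes (log2 fold change 0.47 ± 0.11, adjusted p = 0.00259). The share was lower in eggs in every replicate number, and the called rise is relative to the typical transcript and below 0 under spike-in scaling. At the low end of the family, slc25a13.L and slc25a13.S, copies of the aspartate-glutamate carrier, had the lowest ER to cytosol difference of the family in eggs. slc25a13.L had ER shares of 12.1%, 15.0% and 14.2% in eggs and 21.9%, 24.3% and 26.8% in oocytes, and slc25a13.S had 11.6%, 14.0% and 14.3% in eggs and 23.0%, 25.9% and 24.8% in oocytes. Both were called lower in ER than in cytosol at both stages, and the change between the stages was called for neither. With slc25a16.S, slc25a24.L and slc25a30.S they were the 5 slc25 carriers of at least 2 TPM with the lowest ER share in oocytes. The 5 highest were slc25a44, slc25a44.S, slc25a5.L, slc25a5.S and slc25a24.S.

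In the other families the largest rise of the ER to cytosol difference in eggs was that of slc39a11.L, a zinc transporter of the ZIP family. It had 21.3, 22.2 and 20.3 CPM in egg ER and 2.38, 2.03 and 2.13 CPM in egg cytosol, against 15.1, 16.2 and 17.2 CPM in oocyte ER and 13.1, 12.9 and 13.2 CPM in oocyte cytosol. The egg cytosol libraries were below all other libraries of this transcript. The change was called (log2 fold change 2.97 ± 0.14, adjusted p = 1.31e-12), as were the drop in egg cytosol against oocyte cytosol (log2 fold change -2.57 ± 0.11, adjusted p = 8.68e-14) and a smaller rise in egg ER against oocyte ER (log2 fold change 0.40 ± 0.090, adjusted p = 0.00186), which was below 0 under spike-in scaling. Its ER share, 38.7%, 55.6% and 56.3% in eggs and 34.2%, 38.0% and 39.9% in oocytes, was higher in eggs in each replicate number, unlike that of most carriers. slc15a4.L, a lysosomal histidine and peptide transporter, had 38.0, 36.1 and 35.7 CPM in egg cytosol and 99.6, 99.2 and 103 CPM in oocyte cytosol (log2 fold change -1.46 ± 0.061, adjusted p = 5.99e-14). Its ER to cytosol change was called (log2 fold change 1.97 ± 0.085, adjusted p = 2.79e-13). slc35a1.L, the Golgi CMP-sialic acid transporter, had 6.89, 5.63 and 6.82 CPM in egg cytosol and 24.7, 22.9 and 21.2 CPM in oocyte cytosol (log2 fold change -1.82 ± 0.10, adjusted p = 5.34e-12), while the ER libraries of the stages overlapped. Its change was also called (log2 fold change 1.87 ± 0.14, adjusted p = 7.86e-10).

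Further carriers of the plasma membrane and of the Golgi lay on the same side. slc16a1.S, a lactate carrier, had 53.2, 62.4 and 62.7 CPM in egg ER and 23.3, 23.4 and 26.6 CPM in egg cytosol, against 42.8, 39.6 and 41.7 CPM in oocyte ER and 57.5, 57.0 and 62.1 CPM in oocyte cytosol (log2 fold change 1.79 ± 0.11, adjusted p = 3.57e-11). Its copy slc16a1.L changed the same way (log2 fold change 1.02 ± 0.073, adjusted p = 5.34e-10). slc4a1.L and slc26a6.L, which had been among the lowest on the oocyte ER, were higher in egg ER than in egg cytosol, slc4a1.L (log2 fold change 0.76 ± 0.077, adjusted p = 6e-08) and slc26a6.L (log2 fold change 0.88 ± 0.15, adjusted p = 5.73e-05), with both below 0 under spike-in scaling. The Golgi zinc exporters slc30a7.L (log2 fold change 1.05 ± 0.069, adjusted p = 1.3e-10) and slc30a7.S (log2 fold change 1.44 ± 0.074, adjusted p = 3.57e-12) and the ER zinc transporter slc39a7.L (log2 fold change 1.00 ± 0.074, adjusted p = 8.63e-10) rose likewise relative to the typical transcript. Under spike-in scaling slc16a1.L, slc30a7.L, slc30a7.S and slc39a7.L were not called. On the other side were slc36a4.L (log2 fold change -1.69 ± 0.11, adjusted p = 8.73e-11), the sugar transporter slc50a1.L (log2 fold change -1.32 ± 0.14, adjusted p = 1.93e-07) and a model of the urate carrier slc2a9.L, gene41172 (log2 fold change -1.07 ± 0.15, adjusted p = 1.15e-05). slc50a1.L had ER shares of 9.82%, 14.4% and 14.5% in eggs and 41.5%, 40.2% and 47.5% in oocytes.

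**Figure D3:**
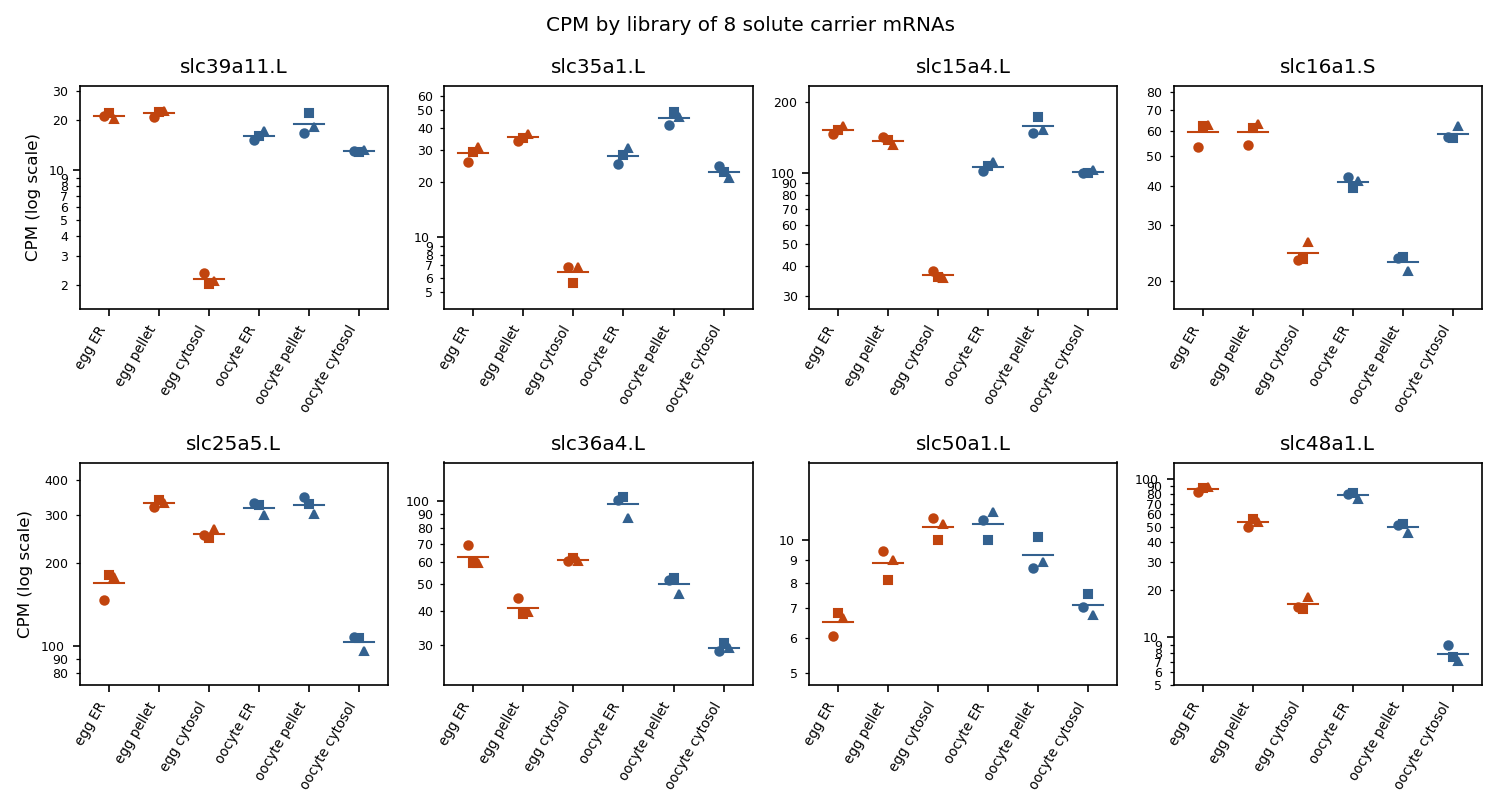
CPM of 8 carriers in each library on a log axis, egg libraries left of oocyte libraries and ER and pellet left of cytosol. Circles, squares and triangles are replicates 1, 2 and 3 and lines are group means; in slc39a11.L, slc35a1.L, slc15a4.L and slc16a1.S the 3 egg cytosol libraries lie below the 3 oocyte cytosol libraries, and in slc25a5.L and slc36a4.L above them.

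Within the cytosol, 50 carriers were higher and 91 lower in eggs than in oocytes, beside 18.4% and 18.6% of all transcripts. The slc25 carriers had 15 of 52 higher and 11 lower (median -0.06), and the other families 35 of 230 higher and 80 lower (median -0.12). Nucleotide sugar and related Golgi carriers had none of 24 higher and 13 lower (median -0.23), metal carriers 2 of 40 higher and 20 lower (median -0.17), fatty acid, acetyl-CoA and choline carriers none of 11 higher and 8 lower (median -0.37), and exchangers 2 of 21 higher and 9 lower (median -0.17). Amino acid carriers had 6 of 42 higher and 11 lower, organic ion and vesicular carriers 6 of 22 higher and 1 lower, and sugar carriers 5 of 19 higher and 2 lower. Under spike-in scaling the medians of the metal, Golgi and exchanger groups were 0.10, 0.03 and 0.09, above 0 but below the median of all transcripts of 0.24, while that of the fatty acid group was -0.15. Of the called carriers of at least 2 TPM whose libraries did not overlap, the lowest after slc39a11.L, slc35a1.L and slc15a4.L were a short 362 nt model of slc35f2.L (gene50718) (log2 fold change -1.33 ± 0.15, adjusted p = 1.8e-07) and slc49a3.S (log2 fold change -1.31 ± 0.18, adjusted p = 3.23e-06). The highest were 2 models of slc34a2.S, gene42603 (log2 fold change 1.41 ± 0.36, adjusted p = 0.00345) and gene4762 (log2 fold change 1.29 ± 0.36, adjusted p = 0.00762), slc25a5.L (log2 fold change 1.29 ± 0.075, adjusted p = 9.06e-12), slc12a9.L (log2 fold change 1.07 ± 0.090, adjusted p = 3.32e-09) and slc36a4.L (log2 fold change 1.06 ± 0.077, adjusted p = 3.55e-10). Without replicate 1 of egg cytosol neither slc34a2.S model was called, gene42603 with 0.90 (adjusted p = 0.0613) and gene4762 with 0.87 (adjusted p = 0.0918). slc25a5.L had 253, 246 and 265 CPM in egg cytosol and 108, 107 and 96.4 CPM in oocyte cytosol, with no overlap.

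**Figure D4:**
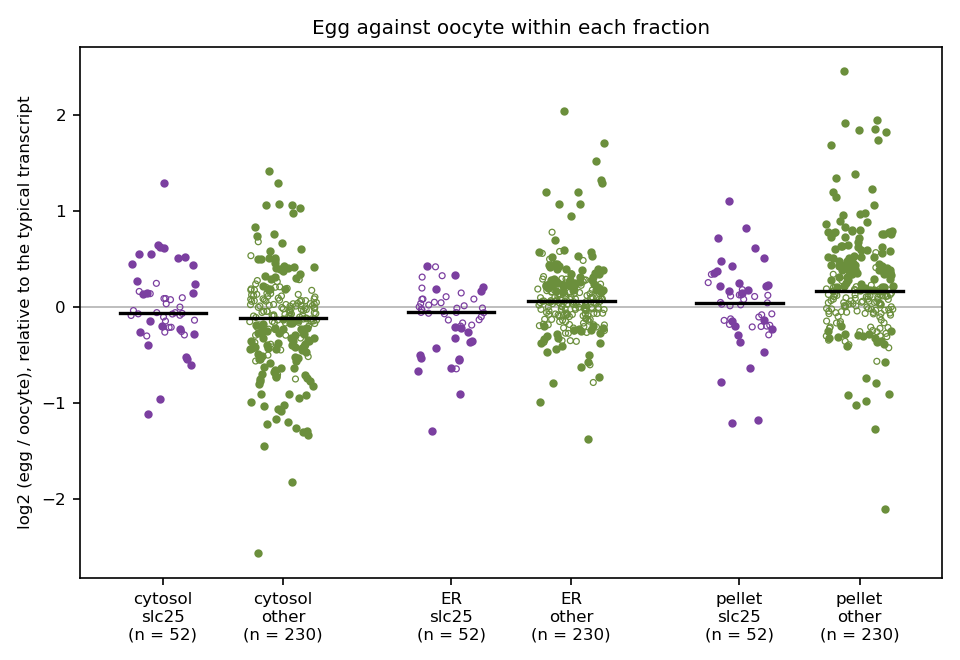
The log2 difference between egg and oocyte within cytosol, ER and pellet, relative to the typical transcript, for 52 slc25 carriers and 230 carriers of other families. Filled points were called, open points were not, and black lines are medians, which lie at -0.06 and -0.12 in cytosol, -0.06 and 0.05 in ER and 0.04 and 0.17 in pellet.

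On the share scale the cytosol part of a carrier was lower in eggs than in oocytes for 42 of 282, or 14.9%, against 5.98% of all transcripts at or above 1 TPM. Without replicate 1 these were 36 carriers and 5.43% of all. A single slc25 carrier was among the 42, slc25a29.L, a carrier of basic amino acids. Amino acid carriers gave 13 of 42, metal carriers 9 of 40 and peptide and monocarboxylate carriers 5 of 12. Among the 13 amino acid carriers are slc7a4.S and slc38a2.L, which passed the limit of 1 TPM only through egg pellet. A high egg pellet value lowers the egg cytosol share. Transcripts of this kind were not left out here, so the shares of 14.9% and 5.98% do not tell how far carriers stand out.

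Within the ER, 65 carriers were higher and 39 lower in eggs than in oocytes, beside 12.4% and 16.1% of all transcripts. Of the slc25 carriers 5 of 52 were higher and 15 lower, and of the other families 60 of 230 were higher and 24 lower, with medians of -0.06 and 0.05. Amino acid carriers had 15 of 42 higher and 5 lower, metal carriers 12 of 40 higher and 4 lower and exchangers 8 of 21 higher and 1 lower. On the spike-in scale the medians of slc25 carriers and of the other families were -0.77 and -0.65, with -0.71 for all transcripts. By the same rule the lowest were slc25a27.L, of the uncoupling protein family (log2 fold change -1.30 ± 0.13, adjusted p = 1.83e-07), slc35a1.S (log2 fold change -0.99 ± 0.076, adjusted p = 3.66e-09), slc25a5.L (log2 fold change -0.91 ± 0.074, adjusted p = 8.87e-09), slc50a1.L (log2 fold change -0.74 ± 0.10, adjusted p = 8.51e-06) and slc25a32.L, a folate and FAD carrier (log2 fold change -0.67 ± 0.15, adjusted p = 0.00138). slc25a27.L had 4.46, 3.66 and 3.52 CPM in egg ER and 7.98, 11.0 and 9.55 CPM in oocyte ER. It was lower in eggs in the cytosol (log2 fold change -0.96 ± 0.13, adjusted p = 3.54e-06) and in the pellet (log2 fold change -1.18 ± 0.13, adjusted p = 1.04e-07) as well. slc35a1.S was lower in eggs in cytosol too (log2 fold change -1.20 ± 0.075, adjusted p = 3.28e-11), as was slc35a1.L. The copies differed in ER, where the libraries of slc35a1.L overlapped between the stages.

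A few carriers lay mainly in the pellet. The mean pellet share was over 50% for 10 carriers in eggs (7 without replicate 1), which is 3.55% of the carriers, against 1.28% of all transcripts at or above 1 TPM. In oocytes it was over 50% for 7 carriers (6 without replicate 1), or 2.48%, against 1.85% of all. Some of these passed the limit of 1 TPM only through the pellet group in which they were highest, namely slc6a15.L, slc7a4.S and slc38a2.L in the egg count and slc6a15.L, slc6a15.S and slc38a2.L in the oocyte count, so neither share tells how far carriers stand out. Without every transcript of this kind, an alternative added after the data were seen, 7 of 273 carriers (2.56%) were over 50% in eggs, against 0.967% of all, and 4 (1.47%) in oocytes, against 1.45% of all. With replicate 1 left out as well, 4 (1.47%) remained over 50% in eggs, against 0.707% of all, and 3 (1.10%) in oocytes, against 1.14% of all. Of the 10 in eggs, several carry amino acids. They were slc3a2.L, the 4F2 heavy chain, slc7a5.L and slc7a5.S, the LAT1 light chain that pairs with it, slc38a2.L and slc6a15.L, carriers of neutral amino acids, and slc7a4.S. With them were slc6a8.L, the creatine transporter, slc25a29.L and 2 models of slc34a2.S, a sodium-phosphate cotransporter. slc34a2.S (gene4762) had pellet shares of 74.5%, 64.4% and 65.6% in eggs and 70.3%, 50.2% and 55.0% in oocytes. slc3a2.L had 79.3%, 64.1% and 64.2% in eggs and 65.1%, 56.3% and 48.8% in oocytes. In CPM slc3a2.L had 15.0, 17.2 and 17.8 in egg pellet and 0.595, 0.535 and 0.579 in egg cytosol (log2 fold change 4.86 ± 0.20, adjusted p = 3.38e-14), and 4.15, 5.29 and 4.74 in oocyte pellet and 0.466, 0.194 and 0.530 in oocyte cytosol (log2 fold change 3.57 ± 0.22, adjusted p = 5.93e-12). Every pellet library lay above every cytosol library of its stage. Most of this list is of low level, with slc3a2.L, slc6a8.L, slc7a5.S and slc7a5.L at a mean of 2.9, 2.6, 2.1 and 2.0 TPM. Another model of the heavy chain, slc3a2 (gene45018) with no .L or .S ending, had a higher mean of 7.7 TPM. Its mean pellet share was not over 50% at either stage.

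**Figure D5:**
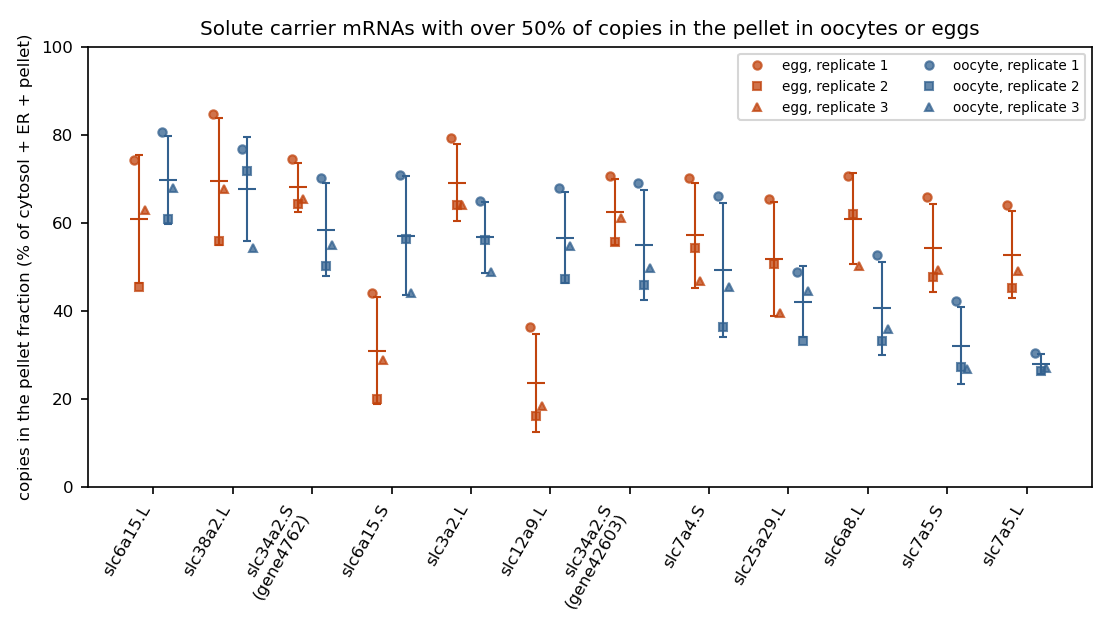
Percent of a transcript's copies in the pellet (authors' deposited shares, axis from 0 to 100%) for the solute carrier mRNAs whose mean passed 50% in eggs or oocytes, eggs left of oocytes. Circles, squares and triangles are replicates 1, 2 and 3, and marks with bars are means ± SD; replicate 1 is the highest of most groups, and the means of slc12a9.L, slc6a15.S and slc6a15.L lie lower in eggs than in oocytes.

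Follicle cell and theca markers lay in the same fraction. Of 19 marker transcripts tested, 15 were higher and none lower in egg pellet than in egg cytosol (median log2 difference 3.93), and 16 were higher and none lower in oocyte pellet than in oocyte cytosol (median 3.60). Between egg and oocyte pellet 1 was higher and 4 were lower. No marker was at 0 in egg pellet, 3 were in egg ER (col1a1, col1a2 and cyp11a1) and 1 in egg cytosol (cyp11a1). In oocytes col1a1 was at 0 in pellet, col1a1 and col1a2 in ER, and col1a2, col3a1 and cyp19a1 in cytosol. The part of follicle cells in the pellet values of slc34a2.S, slc3a2.L, slc7a5, slc6a8.L, slc6a15, slc38a2.L and slc7a4.S was not tested. In a bulk fraction, more cells of a type and more RNA per cell cannot be told apart.

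Of all carriers, 146 were higher and 68 lower in egg pellet than in egg cytosol, beside 34.4% and 32.4% of all transcripts, and 104 were higher and 111 lower in oocyte pellet than in oocyte cytosol, beside 35.6% and 32.6%. The slc25 carriers had 27 of 52 higher and 15 lower in eggs (median 0.26) and 26 higher and 15 lower in oocytes (median 0.22). The other families had 119 of 230 higher and 53 lower in eggs (median 0.25) and 78 higher and 96 lower in oocytes (median -0.06). The change between the stages was called higher in eggs for 125 carriers and lower for 52, beside 23.7% and 23.4% of all transcripts. It was higher for 14 slc25 carriers and lower for 17 (median -0.11), and higher for 111 of the other families and lower for 35 (median 0.32). Under spike-in scaling these medians were -0.31 and 0.11, with -0.22 for all transcripts. Metal carriers had 26 of 40 higher and 4 lower, nucleotide sugar carriers 13 of 24 higher and none lower, exchangers 13 of 21 higher and 2 lower, and fatty acid, acetyl-CoA and choline carriers 8 of 11 higher and none lower. The fatty acid and acyl-CoA family slc27 had 4 of 5 higher. The ER and pellet changes use the same cytosol libraries, so a low egg cytosol value raises both.

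Against oocyte pellet directly, which uses no cytosol library, 115 carriers were higher and 34 lower in egg pellet, beside 22.3% and 21.4% of all transcripts. The slc25 carriers had 16 of 52 higher and 11 lower, and the other families 99 of 230 higher and 23 lower. Metal carriers had 21 of 40 higher and 3 lower, amino acid carriers 20 of 42 higher and 6 lower, and nucleotide sugar carriers 12 of 24 higher and 3 lower. slc43a2.L, a carrier of large neutral amino acids, rose most. It had 32.7, 50.7 and 38.2 CPM in egg pellet and 5.78, 9.26 and 7.06 CPM in oocyte pellet (log2 fold change 2.45 ± 0.16, adjusted p = 9.55e-11), while its cytosol libraries overlapped between the stages. slc7a5.S (log2 fold change 1.92 ± 0.23, adjusted p = 5.13e-07), slc6a8.L (log2 fold change 1.84 ± 0.15, adjusted p = 2.26e-09) and slc3a2.L (log2 fold change 1.82 ± 0.16, adjusted p = 4.86e-09) rose too, and in each the egg pellet libraries were all above the oocyte ones. slc16a1.S had 54.3, 61.5 and 63.3 CPM in egg pellet and 23.6, 23.7 and 21.4 CPM in oocyte pellet (log2 fold change 1.38 ± 0.078, adjusted p = 1.63e-11). Lower in egg pellet were slc25a10.L, the dicarboxylate carrier (log2 fold change -1.21 ± 0.077, adjusted p = 7.8e-11), slc4a11.L (log2 fold change -1.02 ± 0.074, adjusted p = 4.18e-10), slc12a9.L (log2 fold change -0.98 ± 0.072, adjusted p = 5.05e-10) and slc6a9.S, a glycine transporter (log2 fold change -0.92 ± 0.085, adjusted p = 1.59e-08). slc12a9.L had pellet shares of 36.5%, 16.1% and 18.4% in eggs and 68.0%, 47.4% and 54.8% in oocytes, with no overlap, and the authors' deposited table classes it, alone among the carriers, as vegetal.

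The 2 homeologs of a gene were not always called alike. Of 70 genes with 1 transcript of each copy, 43 had the .L copy at the higher mean level, and in 33 the copies differed over 2-fold. On the oocyte ER both copies were called the same way in 24 genes and opposite ways in 2, slc25a24 and slc43a2, while 1 copy alone was called in 30. On the egg ER the numbers were 21, 3 and 31. For the change of the ER to cytosol difference they were 16, 3 and 30, the 3 being slc12a4, slc16a3 and slc48a1. Such counts were not made over all homeolog pairs, and a call of 1 copy alone does not show that the copies differ. Of all transcripts taken singly, 24.3% were higher and 24.8% lower on the oocyte ER, and 18.4% and 21.7% on the egg ER. For the change these shares were 12.4% and 14.7%. slc48a1.S had ER shares of 26.2%, 37.2% and 39.2% in eggs and 37.9%, 42.2% and 49.5% in oocytes, lower than those of slc48a1.L at both stages. Relative to the typical transcript its change was higher in eggs (log2 fold change 0.72 ± 0.12, adjusted p = 4.58e-05), though below 0 under spike-in scaling, where that of slc48a1.L was lower. In cytosol slc48a1.S had 19.8, 19.5 and 20.0 CPM in eggs and 28.7, 26.5 and 25.4 CPM in oocytes, and slc48a1.L had 15.6, 15.2 and 17.9 CPM in eggs and 8.89, 7.48 and 7.06 CPM in oocytes. In the same way slc16a3.L rose (log2 fold change 0.58 ± 0.097, adjusted p = 7.14e-05) and slc16a3.S fell (log2 fold change -0.90 ± 0.073, adjusted p = 3.94e-09) relative to the typical transcript, and under spike-in scaling both were below 0. In slc7a4 the .S copy had pellet shares of 70.3%, 54.3% and 47.0% in eggs and 66.2%, 36.3% and 45.5% in oocytes, and the .L copy 16.3%, 6.55% and 6.88% in eggs and 15.2%, 8.01% and 8.82% in oocytes. For near-identical copies the quantification has to divide shared reads, so single values are uncertain, and a difference between copies was not itself tested.

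Transcripts with a pattern like that of slc18a2.L (gene27348) were sought by Pearson correlation of log2 TPM over the 6 group means, as a description. TPM is not TMM scaled, so the large part that ccdc50.L takes of the ER libraries enters these correlations. The nearest were dand5.S (r = 0.986), prrg4.L (0.975), slc5a9.L (0.973), slc48a1.L (0.971) and psap.S (0.970). These have a mean ER share of 44.2, 47.9, 45.5, 48.6 and 51.8% in eggs and 71.6, 76.3, 62.7, 72.4 and 66.5% in oocytes, in the same order. On the animal-vegetal axis the authors' deposited table classes 202 of the carriers, 194 of them as animal, which is 96% of those classed beside 94.9% of all classed transcripts. Extremely animal were slc48a1.L, slc5a9.L, slc13a4.L and slc30a6.L, or 1.98% of the carriers classed beside 2.52% of all classed transcripts. The first 3 of these are among those with over 50% of their copies on the oocyte ER. That overlap was not tested or counted over all transcripts.

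Other transporters and partners, listed under symbols that do not begin with slc, give a comparison. Of 59 names 49 were matched, with 60 transcripts tested. In egg ER against egg cytosol 23 were higher and 9 lower (38.3% and 15%, beside 18.4% and 21.7% of all transcripts), and in oocyte ER against oocyte cytosol 22 were higher and 12 lower (36.7% and 20%, beside 24.3% and 24.8%). The change between the stages was higher in eggs for 17 and lower for 9 (28.3% and 15%, beside 12.4% and 14.7%), and in cytosol 8 were higher and 15 lower in eggs than in oocytes (13.3% and 25%, beside 18.4% and 18.6%). The authors' deposited table, which compares attomolar concentrations, gives q-values under 0.05 for 4 carriers higher and 97 lower in egg ER than in oocyte ER, with none of 52 slc25 carriers higher and 26 lower. The 97 are 34.4% of the carriers, beside 27.4% of all transcripts with a q-value in the authors' deposited table. The 4 are 1.42%, beside 0.348%. Unlike the carriers, this background of all transcripts, here and below, has no lower limit on TPM. The shares are thus not matched in level, and no gap between them was tested. The authors' deposited table gives 25 carriers higher and 9 lower in egg cytosol than in oocyte cytosol, or 8.87% and 3.19%, beside 7.7% and 0.91% of all. Within eggs it gives 239 carriers higher and 2 lower in cytosol than in ER, or 84.8% and 0.709%, beside 57.2% and 0.317% of all. Within oocytes it gives 168 higher and 17 lower in cytosol than in ER, or 59.6% and 6.03%, beside 33.3% and 2.83% of all. On that scale the median log2 difference of all transcripts between egg ER and oocyte ER was -0.55, a shift that TMM scaling removes.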

How the data were processed

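RNA of 18 libraries, 3 in each of 6 groups, was analysed. Per the labels' protocols, spike-in RNAs were added to each fraction, RNA was extracted with TRIzol, ribosomal RNA was removed and stranded libraries were sequenced on one lane. The submitters' processing notes name bcl2fastq 2.20 and kallisto 0.46.2, and the transcript set and build are not given in the sources used here. The deposited tables hold kallisto estimated counts and TPM per transcript, both made by the authors. The authors also deposited attomolar concentrations, a score from a regression of TPM on 5 spike-in RNAs per the series' design text, the percent of each transcript's copies in each fraction, and linear ratio (fold) columns of group means with q-values from a test that is not named.

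The estimated counts, after rounding to whole numbers, were tested in 1 fit over the 18 libraries with edgeR 4.0.16 under R 4.3.3 (TMM, filterByExpr by group, quasi-likelihood test, 12 residual degrees of freedom), with Benjamini-Hochberg adjustment over 25938 transcripts. Spike-ins and 1 transcript without a name stayed out, and 22 further columns of the series tables were not used. CPM uses TMM library sizes. The fit was also run on simulated counts with independent libraries and changes in oocyte ER alone. That setting is simpler than these data, so the run is no check of the calls made here. With 23095791 to 37834029 counts per library the spread between libraries, and not counting, limits most values.

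Same-numbered libraries deviated together, with every pair's correlation over 0.1, in 2 comparisons, oocyte ER against cytosol (0.264, 0.4 and 0.135) and egg pellet against cytosol (0.167, 0.151 and 0.416). Unlike-numbered libraries of these comparisons had correlations from -0.408 to 0.237 and from -0.415 to 0.172. The highest of these exceed some same-numbered values, so the correlations do not settle whether the numbers mark pairs. There the replicate numbers were taken to pair the libraries, but the main fit had no replicate block and so did not use this pairing. Alternatives were DESeq2's size factors in edgeR, spike-in scaling, DESeq2 1.42.0, no filter, limma 3.58.1 on log2 (attomolar + 0.01), a replicate block and leaving out each library.

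Genes named are slc18a2.L, the 10 carriers of highest mean TPM, in each comparison the 5 highest and 5 lowest called carriers of at least 2 TPM whose libraries do not overlap (for the changes between stages, called carriers), the highest carrier of each role group and the 5 highest and lowest slc25 carriers by oocyte ER share. Others, such as copies of these, the carriers over 50% in a fraction and the zinc carriers slc30a7 and slc39a7, were chosen after their values were seen. The carriers, role groups, marker lists and tests were all chosen with earlier results of these data known.

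Replicates were compared for double deposits: every within-group pair exceeded counting error (reduced chi-square 3.62 to 18.4).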

Additional observations from a re-analysis of the deposited data

Results flagged for a closer look

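The following results are listed because the difference between a fraction and cytosol changed between egg and oocyte in a test of that change (edgeR interaction, adjusted p under 0.05). For ER against cytosol the change was higher in eggs for 79 carriers and lower in eggs for 40. These are 28% and 14.2% of the carriers, beside 12.4% and 14.7% of all transcripts. Among the lower ones, slc25a5.L had a log2 change of -2.20, slc36a4.L of -1.69, slc50a1.L of -1.32, the slc2a9.L model gene41172 of -1.07 and slc25a44 of -1.05. Higher were slc39a11.L with 2.97, slc15a4.L with 1.97, slc26a6.L and slc35a1.L with 1.87 each and slc16a1.S with 1.79. For pellet against cytosol the change was higher in eggs for 125 carriers and lower in eggs for 52, or 44.3% and 18.4%, beside 23.7% and 23.4% of all. There slc12a9.L had -2.06, slc4a11.L -1.43, slc36a4.L -1.35, slc6a9.S -1.29 and slc25a5.L -1.27, and on the other side slc39a11.L had 2.78, slc16a1.S 2.65, slc43a2.L 2.50, slc26a6.L 2.44 and slc4a1.L 2.41. The ER and pellet changes share the egg and oocyte cytosol libraries, and slc25a5.L, slc36a4.L, slc39a11.L, slc16a1.S and slc26a6.L are in both lists. These log2 changes are relative to the typical transcript, whose own change was -0.97 for ER and -0.22 for pellet under spike-in scaling.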

How the results depend on the processing

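Scaling decides the counts. The main counts of carriers called higher and lower are 86 and 71 for oocyte ER and 104 and 111 for oocyte pellet against cytosol, 108 and 43 for egg ER and 146 and 68 for egg pellet against cytosol, 50 and 91 for egg against oocyte in cytosol, 65 and 39 in ER and 115 and 34 in pellet, and 79 and 40 for the change between the stages in ER and 125 and 52 in pellet. Spike-in scaling shifts all transcripts by the medians given above. It gave 15 higher and 193 lower for oocyte ER, 13 and 254 for oocyte pellet, 5 and 258 for egg ER, 16 and 246 for egg pellet, 32 and 16 in cytosol, 4 and 191 in ER, 35 and 10 in pellet, and 7 and 160 (ER) and 38 and 22 (pellet) for the changes. Of all 25938 transcripts it gave 663 higher and 15648 lower for oocyte ER, 1010 and 21489 for oocyte pellet and 140 and 24034 for egg ER. For egg pellet the numbers were 829 and 22629. Between the stages the numbers were 2629 and 636 in cytosol, 205 and 15894 in ER and 1417 and 1230 in pellet. For the changes of all transcripts the numbers were 128 and 14862 (ER) and 1465 and 3205 (pellet). With limma on attomolar values the numbers that moved over 1.5 times were 16 higher for oocyte ER, 11 higher and 254 lower for oocyte pellet, 4 and 254 for egg ER, 11 and 256 for egg pellet, 5 lower in cytosol, 2 higher in ER, 15 and 5 in pellet, and 1 and 152 (ER) and 16 and 19 (pellet) for the changes. Of all 25938 transcripts limma gave 684 higher for oocyte ER, 761 and 21586 for oocyte pellet and 116 and 23990 for egg ER. It gave 518 and 23762 for egg pellet, 328 lower in cytosol, 130 higher in ER and 583 and 457 in pellet. For the changes of all transcripts it gave 92 and 15495 (ER) and 676 and 3546 (pellet). Both scales turned slc4a1.L (-1.02 spike-in, -1.03 limma) and slc26a6.L (-0.89, -0.90) in egg ER against cytosol, slc39a11.L in egg against oocyte ER (-0.32, -0.23), and the ER changes of slc16a3.L (-0.38, -0.49), slc48a1.S (-0.25, -0.43) and slc25a1.L (-0.50, -0.71). Limma alone turned those of slc16a1.L (-0.062), slc39a7.L (-0.11) and slc30a7.L (-0.056).

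Leaving out each library gave 81 to 88 higher and 58 to 66 lower for oocyte ER, 99 to 104 and 104 to 110 for oocyte pellet, 99 to 112 and 28 to 38 for egg ER (28 without replicate 2 of egg ER), 137 to 145 and 60 to 65 for egg pellet, 40 to 47 and 76 to 85 in cytosol, 51 to 67 and 27 to 41 in ER, 103 to 116 and 25 to 36 in pellet, 70 to 80 and 36 to 40 for the ER change and 114 to 124 and 45 to 52 for the pellet change. The replicate block gave 87 higher and 73 lower for oocyte ER, 84 and 43 for the ER change, and changed no other count by over 1.5 times and no call named in the text. DESeq2's size factors and DESeq2 moved no count by over 1.5 times. Without the filter 26 carriers were lower in egg than in oocyte ER. Leaving out replicate 1 of egg cytosol ended the calls of both slc34a2.S models there. Counts of shares without replicate 1 were added after the data were seen. Frogs behind the libraries are not given, the summed level of follicle cell and theca markers differs between fractions, and near-identical copies share reads.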

Other observations

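Messenger RNAs of proteins that work with solute carriers, or carry solutes themselves, are listed under other symbols. Both copies of bsg, basigin, the partner of lactate carriers at the plasma membrane, were higher in egg ER than in egg cytosol, bsg.L by 2.07 ± 0.084 and bsg.S by 1.53 ± 0.073 (log2 ± SE, relative to the typical transcript). In oocyte ER against oocyte cytosol bsg.L was higher by 1.40 ± 0.083 and bsg.S by 0.55 ± 0.071. The change between the stages was 0.66 ± 0.12 for bsg.L and 0.98 ± 0.10 for bsg.S (all edgeR adjusted p under 0.05). The transporter-like mfsd9.L had a mean ER share of 44.5 ± 6.9% in eggs and 28.5 ± 1.2% in oocytes (SD, n = 3 each), and its ER to cytosol difference rose by 2.64 ± 0.073 on the log2 scale in eggs. ucp2.L, a mitochondrial carrier under another name, had a mean of 354 TPM over the 18 libraries. The subunits of the mitochondrial pyruvate carrier, mpc1.L, mpc1.S and mpc2.S, were higher in egg pellet than in egg cytosol by 1.56, 1.69 and 1.69, and higher in oocyte pellet than in oocyte cytosol by 1.17, 1.67 and 1.53 on the log2 scale. All these log2 values are relative to the typical transcript. Under spike-in scaling, with all transcripts shifted, bsg.L stayed called higher in oocyte ER than in oocyte cytosol (0.58 ± 0.24) and the ER change of mfsd9.L stayed called (1.67 ± 0.34). In egg ER against egg cytosol bsg.L was at 0.30 ± 0.24 and bsg.S at -0.24 ± 0.24, bsg.S was at -0.26 ± 0.24 in oocyte ER against oocyte cytosol, and the ER changes of bsg.L and bsg.S were -0.28 ± 0.34 and 0.022 ± 0.34, none of them called. The pellet values of mpc1.L, mpc1.S and mpc2.S turned to -0.42, -0.30 and -0.31 in eggs and -0.60, -0.10 and -0.24 in oocytes, of which mpc1.L in oocytes alone was called.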
